A study of Mus musculus with 8 samples.

Results

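Immediate early and stress response genes are genes that cells transcribe within a short time of a stimulus, without first making new protein. A set of 38 of them was followed here among 18193 measured genes in mouse blood monocytes. Each gene was taken from probe sets annotated to exactly 1 symbol, by the one brightest on average across the 8 arrays, and all 38 listed genes were found. The set holds 8 AP-1 and small Maf factors, 3 Egr factors, 4 MAP kinase phosphatases, 3 mRNA decay factors, 3 heat shock genes, 3 genes of DNA damage and of eIF2alpha phosphorylation, and 14 others.

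The study injected male C57BL/6 mice intravenously with fluorescent latex beads of 1 µm, which blood monocytes take up, and sorted blood monocytes 4 days later by subset and by bead content. The 4 groups, with 2 arrays each, were Gr1lo (nonclassical) monocytes with beads, Gr1lo monocytes without beads, Gr1hi (classical) monocytes with beads, and Gr1hi monocytes without beads. The bead-free cells came from the same injected animals, so no uninjected group was compared. The series text has clodronate liposomes, which deplete monocytes, given 3 days before the beads and names no subset, while the treatment protocol gives them for labelling classical cells and leaves them out for nonclassical cells. Under the protocol's reading, subset and clodronate treatment cannot be told apart. The labels call the 2 arrays of a group biological replicates but do not say how many mice gave each one, nor whether the bead-carrying and bead-free arrays of the same number came from the same blood.

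Signals such as growth factors, adhesion, ingested particles or heat reach these genes through MAP kinases, serum response factor, CREB and heat shock factor. The first products include the AP-1 subunits of the Fos and Jun families and the zinc finger factor Egr1. A second layer of fast genes then ends the response: dual specificity phosphatases remove phosphates from MAP kinases, and Zfp36 proteins and Btg2 bring deadenylases to messenger RNAs. Heat shock proteins of the Hsp70 family and their Dnaj partners refold damaged proteins. In monocytes these genes are known to respond quickly to adhesion, cytokines and temperature.

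Values are log2 expression values as deposited, so a difference of 1 is a doubling. Each difference comes from 1 limma fit of all 18193 genes on the 8 arrays, and a gene was called at a Benjamini-Hochberg adjusted p under 0.05. A level of 6.98, the 95th percentile of 115 genes for olfactory, vomeronasal and taste receptors and keratin-associated proteins, served as background, and 8790 genes (48.3%) had a mean above it. Group means of 31 of the 38 genes were above background in all 4 groups. Fosb, Maff and Egr1 were above it in some groups, and Egr2, Gadd45a, Nr4a2 and Myc in none. Monocyte markers (Csf1r, Cd14, Lyz2, Itgam and Cx3cr1) averaged 11.83 to 12.37 on every array. The 7 nonclassical markers averaged 11.80 to 12.11 on Gr1lo arrays, against 8.29 to 8.71 on Gr1hi arrays, and the 4 measured classical markers averaged 8.62 to 10.90 on Gr1lo arrays, against at least 12.63 on Gr1hi arrays. In bulk samples, fewer cells of a type and less RNA per cell cannot be told apart. With 2 arrays a group, the number of arrays limits the precision.

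Promoter sequence was available for 32 of the 38 genes in the RefSeq promoter table (GRCm38.p6), which covers 250 bases before to 50 bases after each start. Egr1, Egr3, Myc, Trib1, Nfkbiz and Ier2 had no entry, so their promoters were not searched. The 180 bases before the start are shown for genes whose RNA differed most between the subsets or whose promoters hold the sites named next. Sequences run 5′ to 3′ on the strand of the gene, and the capitals mark only the motifs for which each gene is shown. The first pair is shown because the Hspa1a and Hspa1b starts are so alike: 179 of the 180 bases shown, and 247 of 250, were identical at the same position. Both hold the heat shock element pair GAANNTTC, which heat shock factor is known to bind. An NF-kB site at position -133 before both starts is left in lower case. Hspa1a lies at chr17:34972157-34972336, minus strand, and Hspa1b at chr17:34959239-34959418, minus strand.
Hspa1a: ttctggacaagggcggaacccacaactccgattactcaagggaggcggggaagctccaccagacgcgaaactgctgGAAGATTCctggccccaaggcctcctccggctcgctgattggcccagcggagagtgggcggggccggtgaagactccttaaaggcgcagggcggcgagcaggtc
Hspa1b: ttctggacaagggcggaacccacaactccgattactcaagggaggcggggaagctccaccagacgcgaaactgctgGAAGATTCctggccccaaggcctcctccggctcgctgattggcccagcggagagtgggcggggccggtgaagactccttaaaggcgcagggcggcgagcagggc

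The phosphatase gene Dusp5 (chr19:53528965-53529144, plus strand) and the decay factor gene Zfp36 (chr7:28379229-28379408, minus strand) are shown for their CArG boxes, the core of the serum response element. Dusp5 has 2 that adjoin each other, and Zfp36 has 1 beside an EGR site, GCGGGGGCG. The phosphatase gene Dusp2 (chr2:127335979-127336158, plus strand) is shown for the same EGR site.
Dusp5: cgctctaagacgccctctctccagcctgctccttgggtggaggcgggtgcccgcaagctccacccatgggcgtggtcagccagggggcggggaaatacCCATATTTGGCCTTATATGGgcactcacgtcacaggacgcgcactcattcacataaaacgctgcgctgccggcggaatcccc
Zfp36: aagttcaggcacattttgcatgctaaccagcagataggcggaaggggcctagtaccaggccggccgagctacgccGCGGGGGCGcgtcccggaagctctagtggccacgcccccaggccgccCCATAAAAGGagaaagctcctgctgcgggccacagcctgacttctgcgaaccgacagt
Dusp2: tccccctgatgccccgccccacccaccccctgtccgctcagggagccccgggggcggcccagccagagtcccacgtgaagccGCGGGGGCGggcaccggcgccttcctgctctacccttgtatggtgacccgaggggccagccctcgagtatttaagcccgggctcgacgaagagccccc

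Dusp1 (chr17:26508473-26508652, minus strand), Btg2 (chr1:134079156-134079335, minus strand) and Ppp1r15a (chr7:45526269-45526448, minus strand) are shown for the full cAMP response element, TGACGTCA, the site of the CREB and ATF family.
Dusp1: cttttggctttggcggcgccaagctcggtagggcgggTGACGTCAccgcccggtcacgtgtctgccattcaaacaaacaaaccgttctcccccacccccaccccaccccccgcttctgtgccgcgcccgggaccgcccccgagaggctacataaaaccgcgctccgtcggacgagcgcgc
Btg2: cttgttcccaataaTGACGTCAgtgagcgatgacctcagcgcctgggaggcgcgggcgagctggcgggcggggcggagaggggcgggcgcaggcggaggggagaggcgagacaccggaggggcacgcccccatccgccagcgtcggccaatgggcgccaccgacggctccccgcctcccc
Ppp1r15a: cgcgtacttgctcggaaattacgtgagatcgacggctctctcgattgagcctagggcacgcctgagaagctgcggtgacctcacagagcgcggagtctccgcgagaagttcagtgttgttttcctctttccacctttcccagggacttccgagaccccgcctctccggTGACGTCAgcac

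Both strands of each window were searched, and no matches of different motifs overlapped in these 32 genes. A CArG box was found in 3 of the 32 (9.38%), Egr2, Dusp5 and Zfp36, and in 1.81% of 27025 genes with a promoter. The full cAMP response element was in 4 (12.5%), the 3 shown and Maff, and in 2.03% of all genes. The EGR site was in 5 (15.6%), Fosb, Mafk, Dusp2, Zfp36 and Socs3, and in 3.31% of all genes. An NF-kB site was in 7 (21.9%) and in 9.55% of all genes. The GAANNTTC pair was in 4 (12.5%), Jun, Hspa1a, Hspa1b and Sgk1, and in 9.04% of all genes, and the AP-1 site TGANTCA was in 2 (6.25%), Zfp36l1 and Csrnp1, and in 8.97% of all genes. These matches describe the sequence windows only, and a site outside a window or in a gene without an entry would not be seen.

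The first comparison asked how the set differed between Gr1lo and Gr1hi monocytes. Most of the 38 genes were higher in Gr1lo monocytes: averaged over bead state, 26 rose, 1 (Gadd45b) fell and 11 were not called. Of all 18193 genes 35.6% were called, 14.8% higher and 20.9% lower. Of the 8790 genes above background 56.2% were called and 25.5% were called higher. The median difference of the 38 genes was 0.90, against -0.05 for all genes, and the range was -0.87 to 3.34. All 4 Gr1lo arrays lay above all 4 Gr1hi arrays for 24 of the 38, as for 13.9% of all genes. The 38 genes were chosen with earlier results of these data known, so these counts are not an independent test of the set. Without beads 19 genes rose and 0 fell (23.6% of all genes called, 10.0% higher and 13.6% lower), with a median of 0.85. With beads 22 rose and 0 fell (26.5% of all genes called, 11.8% higher and 14.6% lower), with a median of 0.90. Averaged over bead state, all 4 phosphatases, all 3 decay factors and all 3 heat shock genes rose, with 5 of 8 AP-1 and small Maf factors and 1 of 3 Egr factors.

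**Figure D1:**
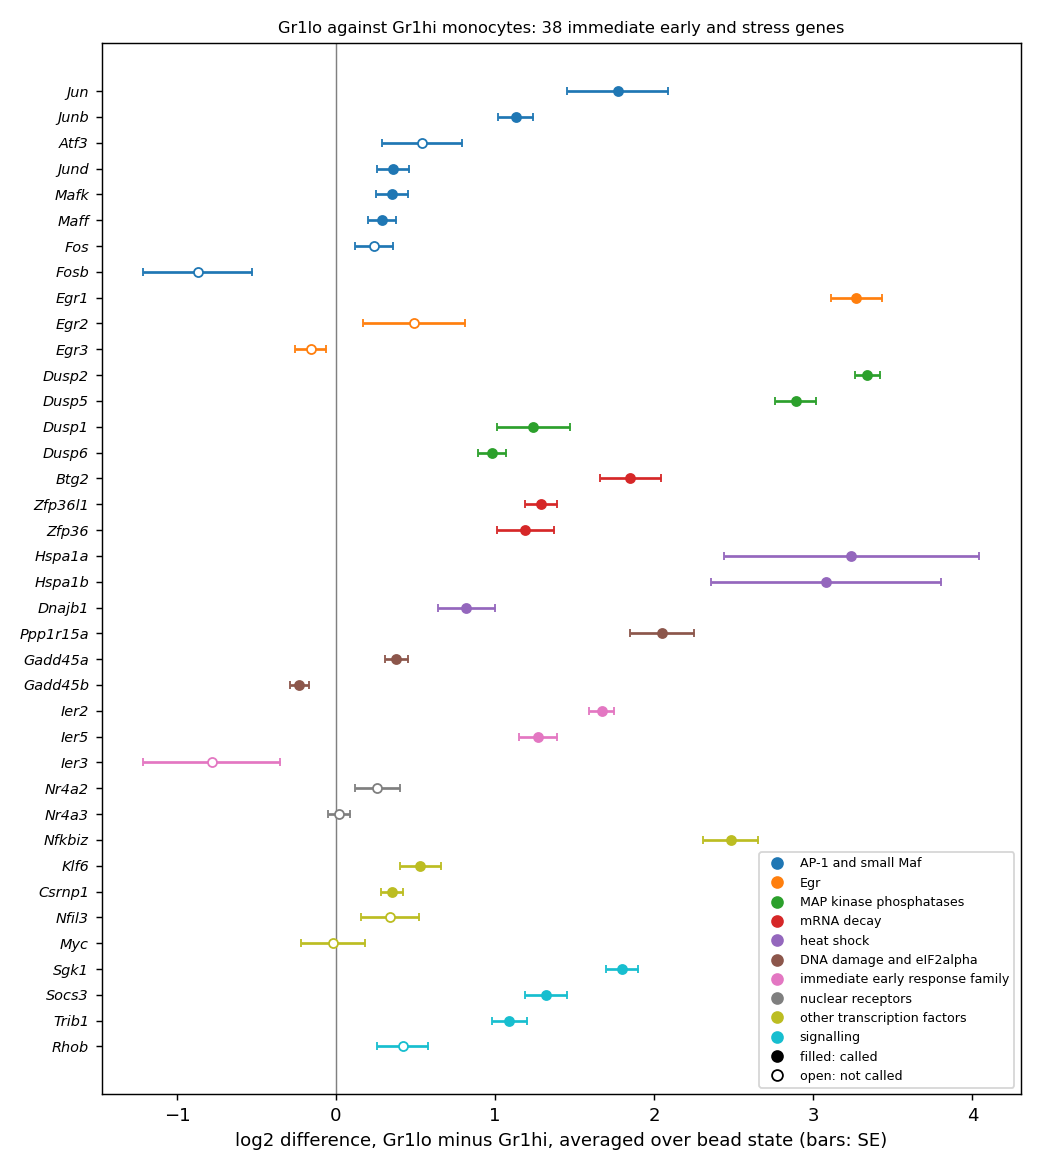
Difference in log2 expression between Gr1lo and Gr1hi monocytes, averaged over bead state, for the 38 genes (rows, coloured by role). Points are estimates from 2 arrays a group and bars are standard errors; filled points were called at an adjusted p under 0.05. The 4 MAP kinase phosphatases lie between 0.98 and 3.34, and Hspa1a and Hspa1b have the widest bars.

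Jun and Junb, which pair with Fos proteins in AP-1, rose in Gr1lo monocytes. Jun was at 12.30 and 12.15 in Gr1lo with beads and at 12.46 and 11.92 in Gr1lo without, against 11.00 and 10.01 in Gr1hi with beads and 11.10 and 9.65 in Gr1hi without. Every Gr1lo array was above every Gr1hi array, but the Gr1hi arrays of each pair lay about 1 log2 unit or more apart. The difference was 1.77 ± 0.32 (SE, adjusted p = 0.00257). It was 2.38 without the Gr1hi arrays numbered 1 and 1.16 without those numbered 2. Either removal leaves 1 array in each Gr1hi group, so a call after it cannot test the gap between them. Junb, which is known to act as a weaker activator than Jun, was at 10.05 and 10.20 in Gr1lo with beads and at 10.23 and 10.11 in Gr1lo without, against 8.96 and 8.71 in Gr1hi with beads and 9.44 and 8.98 in Gr1hi without. The groups did not overlap, and the difference was 1.13 ± 0.11 (adjusted p = 7.8e-05).

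Fos, the best known partner of the Jun proteins, did not follow them. Its levels were 13.43 and 13.58 in Gr1lo with beads and 13.49 and 13.70 in Gr1lo without, against 13.42 and 12.92 in Gr1hi with beads and 13.57 and 13.36 in Gr1hi without. The subsets overlapped, and the difference was 0.24 ± 0.12 (95% interval -0.03 to 0.50, adjusted p = 0.155). Without the bead-carrying Gr1hi array numbered 1 it was called, at 0.36 ± 0.09 (adjusted p = 0.0240). Fosb, a second Fos protein, was near background in Gr1lo, at 6.08 and 6.23 with beads and 6.36 and 6.33 without. In Gr1hi it was at 7.65 and 6.31 with beads and 7.98 and 6.54 without, so the array numbered 1 stood above its partner in both bead states. Its difference of -0.87 ± 0.34 was not called (adjusted p = 0.0823), and with 1 array left out it lay between -1.23 and -0.51. It was called without the Gr1hi array numbered 2 with beads (-1.20 ± 0.30, adjusted p = 0.0185) or without beads (-1.23 ± 0.29, adjusted p = 0.0146).

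Atf3, a stress-induced factor that can repress AP-1 targets, was at 11.26 and 10.65 in Gr1lo with beads and at 11.36 and 10.91 in Gr1lo without, against 11.14 and 10.28 in Gr1hi with beads and 10.73 and 9.87 in Gr1hi without. The subsets overlapped, and 0.54 ± 0.25 was not called (adjusted p = 0.136). The Atf3 difference was 0.97 without the Gr1hi arrays numbered 1 and 0.11 without those numbered 2. Jund, a Jun protein expressed in resting cells, was higher by 0.36 ± 0.10 (adjusted p = 0.0204), and lay between 10.74 and 10.82 on the Gr1lo arrays, against 10.24 to 10.69 on the Gr1hi arrays. The small Maf factors lack an activation domain and pair with other factors. Mafk was higher in Gr1lo by 0.35 ± 0.10 (adjusted p = 0.0250), with 8.49 to 8.70 on Gr1lo arrays, against 8.12 to 8.48 on Gr1hi arrays. Maff was higher by 0.29 ± 0.09 (adjusted p = 0.0279), with 6.64 to 7.06 on Gr1lo arrays, against 6.43 to 6.76 on Gr1hi arrays, about the background level. These last 3 calls depended on single arrays. With 1 array left out, Jund was called in 5 of 8 cases (0.25 to 0.47), Mafk in 4 of 8 (0.25 to 0.44) and Maff in 3 of 8 (0.21 to 0.37). Arrays whose removal ended a call were both bead-carrying Gr1lo arrays, the Gr1lo array without beads numbered 1, both bead-carrying Gr1hi arrays and the Gr1hi array without beads numbered 2, with adjusted p up to 0.0712 for Jund, 0.0856 for Mafk and 0.0903 for Maff. Without both Gr1hi arrays numbered 2 none of the 3 was called, at 0.21 for Jund (adjusted p = 0.124), 0.22 for Mafk (adjusted p = 0.206) and 0.24 for Maff (adjusted p = 0.119). The Jund call also ended with the mean of its probe sets (0.16, adjusted p = 0.0922), and the Maff call ended with a random replicate block (adjusted p = 0.0694).

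**Figure D2:**
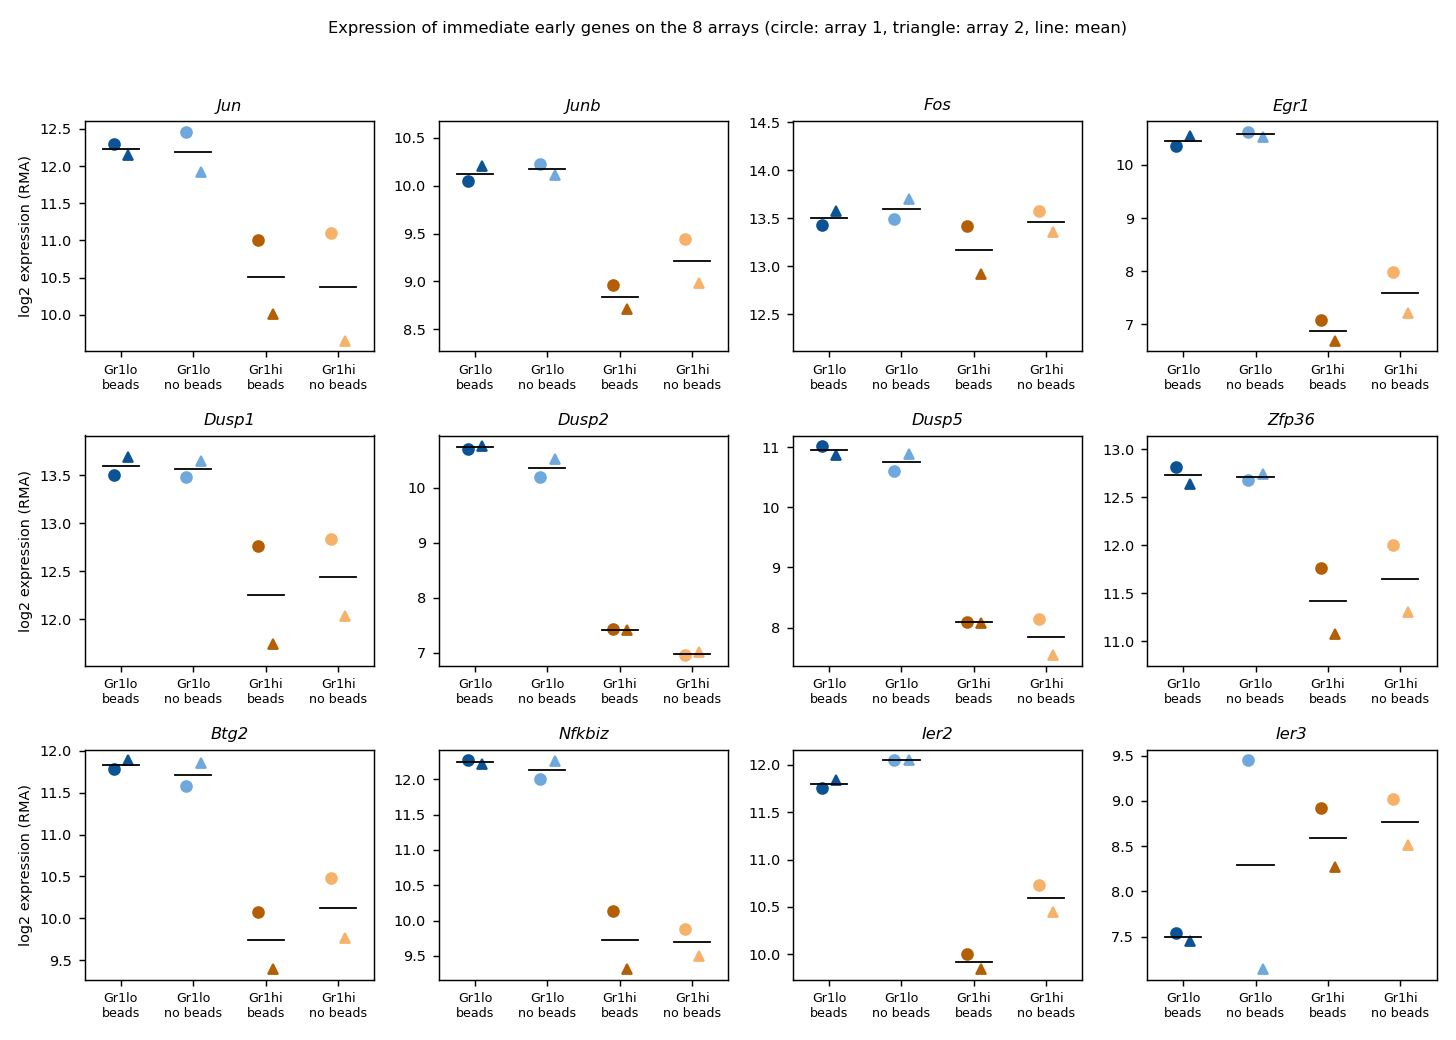
Log2 expression (vertical axis, its own scale in each panel) of 12 genes on the 8 arrays by group. Circles are the arrays numbered 1, triangles those numbered 2 and lines group means. Egr1, Dusp2, Dusp5, Nfkbiz and Ier2 have both Gr1lo groups above both Gr1hi groups, Fos has overlapping subsets, and Ier3 has 1 Gr1lo array at 9.45.

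Egr1, the first of the Egr zinc finger factors to respond to ERK signals, was at 10.35 and 10.54 in Gr1lo with beads and at 10.62 and 10.53 in Gr1lo without, against 7.08 and 6.69 in Gr1hi with beads and 7.99 and 7.21 in Gr1hi without. No Gr1hi array reached a Gr1lo array, and 1 of the 4 Gr1hi arrays was below the background level. The difference was 3.27 ± 0.16 (adjusted p = 2.07e-06), with 3.56 ± 0.23 with beads and 2.97 ± 0.23 without beads. The Gr1hi mean with beads, 6.88, was itself below background, so the size of the difference there is uncertain. The other Egr genes did not share it. Egr2 was at 6.09 and 5.84 in Gr1lo with beads and 7.49 and 5.68 in Gr1lo without, against 5.71 to 5.88 on the Gr1hi arrays, and 0.49 ± 0.32 was not called (adjusted p = 0.279). Only the Gr1lo array without beads numbered 1 was above background. Without its partner the difference was 0.94, from a fit with 1 array in that group. Egr3 lay between 7.43 and 7.84 on Gr1lo arrays, against 7.67 to 7.98 on Gr1hi arrays, with a difference of -0.16 ± 0.10 (adjusted p = 0.233).

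All 4 MAP kinase phosphatases rose, with a median difference of 2.06. Dusp2, a nuclear phosphatase of ERK and p38 known from activated blood cells, was at 10.71 and 10.76 in Gr1lo with beads and at 10.19 and 10.52 in Gr1lo without, against 7.43 and 7.41 in Gr1hi with beads and 6.96 and 7.02 in Gr1hi without. The 4 groups were each tight, and the subsets lay more than 2 log2 units apart. The difference was 3.34 ± 0.08 (adjusted p = 4.43e-08), a fold of 10.1 and the smallest p of the 38 genes. Dusp5, a nuclear phosphatase selective for ERK, was at 11.02 and 10.87 in Gr1lo with beads and at 10.61 and 10.88 in Gr1lo without, against 8.09 and 8.08 in Gr1hi with beads and 8.14 and 7.54 in Gr1hi without. The subsets did not overlap, and the difference was 2.89 ± 0.13 (adjusted p = 1.01e-06), a fold of 7.39.

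Dusp6, the cytoplasmic ERK phosphatase, was at 12.11 and 12.14 in Gr1lo with beads and at 12.11 and 12.33 in Gr1lo without, against 10.85 and 11.13 in Gr1hi with beads and 11.30 and 11.47 in Gr1hi without. It was higher in every Gr1lo array, by 0.98 ± 0.09 (adjusted p = 4.06e-05). Dusp1, which acts mainly on p38 and JNK, was at 13.50 and 13.69 in Gr1lo with beads and at 13.48 and 13.65 in Gr1lo without, against 12.76 and 11.74 in Gr1hi with beads and 12.84 and 12.03 in Gr1hi without. The subsets did not overlap, although the Gr1hi arrays of a pair differed by 1.01 with beads and 0.81 without. The difference was 1.24 ± 0.23 (adjusted p = 0.00321). Taken alone, the Dusp1 call with beads was lost in 4 of 20 alternatives and the call without beads in 7 of 20.

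All 3 mRNA decay genes rose. Zfp36, or tristetraprolin, which destabilises cytokine messenger RNAs, was at 12.82 and 12.64 in Gr1lo with beads and at 12.68 and 12.74 in Gr1lo without, against 11.76 and 11.07 in Gr1hi with beads and 12.00 and 11.30 in Gr1hi without. The subsets did not overlap, and the difference was 1.19 ± 0.18 (adjusted p = 0.000947). Its relative Zfp36l1 was at 11.64 and 11.76 in Gr1lo with beads and at 10.81 and 11.27 in Gr1lo without, against 10.21 and 10.05 in Gr1hi with beads and 10.09 and 9.99 in Gr1hi without. It was higher on every Gr1lo array, by 1.29 ± 0.10 (adjusted p = 2.44e-05). Btg2, an antiproliferative partner of the CCR4-NOT deadenylase, was at 11.78 and 11.89 in Gr1lo with beads and at 11.58 and 11.85 in Gr1lo without, against 10.08 and 9.39 in Gr1hi with beads and 10.48 and 9.76 in Gr1hi without. Again no arrays overlapped, and the difference was 1.85 ± 0.19 (adjusted p = 9.5e-05).

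The heat shock genes had large differences that rested on which Gr1hi array was read. Hspa1a, an inducible Hsp70 chaperone, was deposited at 13.231 and 12.851 in Gr1lo with beads and at 13.348 and 13.001 in Gr1lo without, against 11.243 and 7.786 in Gr1hi with beads and 11.754 and 8.672 in Gr1hi without. Every Gr1lo array was higher, but the Gr1hi pairs lay 3.46 and 3.08 log2 units apart. The difference was 3.24 ± 0.80 (95% interval 1.41 to 5.08, adjusted p = 0.0128). The fit took the Gr1hi arrays as independent, although those of the same number had similar values. The standard error and interval may therefore be too small. Hspa1a was not called with beads (adjusted p = 0.0507) or without beads (adjusted p = 0.0985) taken alone. Hspa1b, the second inducible Hsp70 gene, was at 13.94 and 13.64 in Gr1lo with beads and at 13.77 and 13.65 in Gr1lo without, against 11.99 and 8.83 in Gr1hi with beads and 12.29 and 9.60 in Gr1hi without. The pattern over the arrays was that of Hspa1a, and the difference was 3.08 ± 0.72 (adjusted p = 0.00948). Taken alone, Hspa1b was called with beads, a call lost in 5 of 20 alternatives, and was not called without beads. The 2 genes are near-identical copies, so their probe sets may read each other's RNA and they are uncertain as separate measurements. All 3 Hspa1b probe sets had a difference of the same sign, from 3.08 to 4.01.

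Without the Gr1hi arrays numbered 1, the difference was 4.88 for Hspa1a and 4.54 for Hspa1b, and without those numbered 2 it was 1.61 and 1.62. With 1 array left out it ran from 2.38 to 4.11 for Hspa1a and from 2.29 to 3.87 for Hspa1b. It was lowest and highest when a bead-carrying Gr1hi array was left out. The Hspa1a and Hspa1b calls ended when the spread was estimated with a trend and robustly (adjusted p = 0.104 and 0.0896). Dnajb1, the Hsp40 partner that loads clients onto Hsp70, was at 11.37 and 11.01 in Gr1lo with beads and at 11.54 and 11.04 in Gr1lo without, against 10.67 and 10.10 in Gr1hi with beads and 10.74 and 10.18 in Gr1hi without. The subsets did not overlap, and its 0.82 ± 0.18 was called (adjusted p = 0.00695). That call ended without the Gr1hi arrays numbered 2 (0.54, adjusted p = 0.0651). Taken alone, the Dnajb1 call with beads was lost in 6 of 20 alternatives and the call without beads in 8 of 20.

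Ppp1r15a, or Gadd34, the stress-induced subunit that returns eIF2alpha to its unphosphorylated state, was at 10.25 and 10.10 in Gr1lo with beads and at 10.19 and 10.14 in Gr1lo without, against 8.48 and 7.73 in Gr1hi with beads and 8.54 and 7.74 in Gr1hi without. The Gr1lo arrays lay close together and above all Gr1hi arrays, and the difference was 2.05 ± 0.20 (adjusted p = 7.38e-05). The growth arrest gene Gadd45a was below background in all group means and was higher in Gr1lo by 0.38 ± 0.07 (adjusted p = 0.00361), at 6.21 to 6.63 on Gr1lo arrays, against 5.67 to 6.46 on Gr1hi arrays. Gadd45b, a relative that can activate p38 signalling, was the 1 gene that fell. It was lower by 0.23 on the log2 scale (SE 0.06, adjusted p = 0.0231), with 8.28 to 8.58 on Gr1lo arrays, against 8.44 to 8.86 on Gr1hi arrays. That call held in 4 of 8 cases with 1 array left out. It ended without the Gr1hi array numbered 2 in either bead state and without the Gr1lo array numbered 1 in either bead state (adjusted p up to 0.0871). It also ended without the Gr1hi arrays numbered 1 (-0.28, adjusted p = 0.0613), without those numbered 2 (-0.17, adjusted p = 0.217) and with the mean of its probe sets (-0.16, adjusted p = 0.0798). The Gadd45a call ended without the Gr1hi arrays numbered 1 (0.31, adjusted p = 0.0621).

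Among the immediate early response family, Ier2, a small nuclear protein induced by growth factors, was at 11.76 and 11.84 in Gr1lo with beads and at 12.05 and 12.05 in Gr1lo without, against 10.00 and 9.84 in Gr1hi with beads and 10.73 and 10.45 in Gr1hi without. The difference of 1.67 ± 0.08 was larger than any gap between replicates (adjusted p = 1.52e-06). Ier5, which is known to activate heat shock factor, was at 11.56 and 11.66 in Gr1lo with beads and at 11.50 and 11.72 in Gr1lo without, against 10.47 and 10.00 in Gr1hi with beads and 10.62 and 10.26 in Gr1hi without. It was higher on every Gr1lo array, by 1.27 ± 0.12 (adjusted p = 7e-05). Ier3, an NF-kB target that modulates survival, was at 7.54 and 7.45 in Gr1lo with beads and at 9.45 and 7.14 in Gr1lo without, against 8.92 and 8.27 in Gr1hi with beads and 9.02 and 8.51 in Gr1hi without. A single Gr1lo array made the subsets overlap, and -0.78 ± 0.43 was not called (adjusted p = 0.195). Without that array Ier3 was called lower in Gr1lo, at -1.36 ± 0.18 (adjusted p = 0.000563).

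Nfkbiz, a nuclear IkB protein that switches on secondary NF-kB targets, was at 12.27 and 12.22 in Gr1lo with beads and at 12.00 and 12.26 in Gr1lo without, against 10.13 and 9.31 in Gr1hi with beads and 9.88 and 9.50 in Gr1hi without. The subsets were about 2 log2 units apart at their nearest, and the difference was 2.48 ± 0.17 (adjusted p = 1.11e-05). Klf6, a zinc finger factor of activated macrophages, was at 11.76 to 11.84 on Gr1lo arrays, against 10.94 to 11.55 on Gr1hi arrays, a difference of 0.53 ± 0.13 (adjusted p = 0.0133), which was 0.28 and not called without the Gr1hi arrays numbered 2 (adjusted p = 0.0509). Csrnp1, an AXIN1-induced nuclear protein, was higher by 0.35 ± 0.07 (adjusted p = 0.00436), with 8.23 to 8.57 on Gr1lo arrays, against 7.91 to 8.19 on Gr1hi arrays. Its call ended without the Gr1hi arrays numbered 2 (0.28, adjusted p = 0.0650) and with the mean of all its probe sets (0.04, adjusted p = 0.572). The circadian and cytokine-response repressor Nfil3 (0.34 ± 0.18, adjusted p = 0.168), Myc (-0.02 ± 0.20, adjusted p = 0.944) and the orphan nuclear receptors Nr4a2 (0.26 ± 0.14, adjusted p = 0.195) and Nr4a3 (0.02 ± 0.07, adjusted p = 0.835) were not called. Nfil3 was called without the bead-free Gr1hi array numbered 1, at 0.53 ± 0.14 (adjusted p = 0.0269).

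Of the signalling genes, 3 of 4 rose. Sgk1, a kinase induced by serum and glucocorticoids, was at 11.93 and 12.06 in Gr1lo with beads and at 11.85 and 12.20 in Gr1lo without, against 10.34 and 10.07 in Gr1hi with beads and 10.20 and 10.23 in Gr1hi without. The difference was 1.80 ± 0.10 (adjusted p = 2.89e-06), with no overlap. Socs3, the feedback inhibitor of gp130 and G-CSF receptor signals, was at 12.05 and 12.24 in Gr1lo with beads and at 11.90 and 12.26 in Gr1lo without, against 10.63 and 10.97 in Gr1hi with beads and 10.59 and 10.98 in Gr1hi without. The arrays numbered 2 were the higher ones here in all 4 groups, and the difference was 1.32 ± 0.13 (adjusted p = 6.64e-05). Trib1, a pseudokinase adaptor of the COP1 ligase that targets C/EBP factors, was at 9.08 to 9.24 on Gr1lo arrays, against 7.80 to 8.33 on Gr1hi arrays, a difference of 1.09 ± 0.11 (adjusted p = 9.17e-05). Rhob, a gene induced by stress, had a difference of 0.42 ± 0.16 that was not called (adjusted p = 0.0722), but was called without the Gr1hi array numbered 1 with beads (0.56 ± 0.15, adjusted p = 0.0280) or without beads (0.57 ± 0.15, adjusted p = 0.0260). Of the 10 genes with several probe sets above background, all 10 had the same sign of the subset difference in each such probe set.

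Neutrophil markers moved with the subsets: the 10 measured averaged 6.87 to 7.25 on Gr1lo arrays, against 8.71 to 9.63 on Gr1hi arrays, and 9 of the 10 were above background in at least 1 group. Their part in the subset differences was not tested.

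Other genes of the same pathways were counted in the same way. These lists, too, were chosen with earlier results of these data known. Of 114 listed, 105 were measured, and averaged over bead state 44 rose and 20 fell in Gr1lo, with a median of 0.15, where 14.8% of all genes rose and 20.9% fell. Among 9 other MAP kinase phosphatases 2 rose and 3 fell. Dusp16, a phosphatase of JNK and p38, was at 12.60 and 12.87 in Gr1lo with beads and 12.01 and 12.51 in Gr1lo without, against 7.85 and 7.89 in Gr1hi with beads and 7.70 and 7.29 in Gr1hi without. Its difference of 4.81 ± 0.13 (adjusted p = 1.11e-07) exceeded that of each of the 38 genes, while Dusp10 was higher by 0.50 ± 0.08 and Dusp22 lower, at -0.61 ± 0.06. Of 14 other KLF and early factors 11 rose and 1 fell. They included the nuclear receptor Nr4a1, which Gr1lo monocytes are known to need (2.21 ± 0.07), Bhlhe40 (2.13 ± 0.06), Klf4 (1.49 ± 0.07) and the HLH inhibitor Id2 (1.25 ± 0.08). Of the 3 Nr4a receptors, Nr4a1 was called and the 2 in the set were not.

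Of 11 feedback inhibitors of NF-kB and cytokine signals 6 rose and 0 fell, among them Nfkbie (1.44 ± 0.17), Rgs2 (0.90 ± 0.07), Nfkbid (0.74 ± 0.09) and Rgs1 (3.60 ± 0.47). Rgs1, a regulator of G protein signalling, also had unlike Gr1hi arrays, at 9.20 and 7.18 with beads and 8.37 and 6.66 without. Of 14 other mRNA decay genes 8 rose and 0 fell, led by Btg1 (0.67 ± 0.07) with small differences in deadenylase subunits such as Cnot7 (0.46 ± 0.08) and Cnot8 (0.43 ± 0.05). Of 12 other SRF and ERK path genes 8 rose and 2 fell, with the ERK kinase Map2k1 at 0.79 ± 0.08 and the SRF cofactor Elk4 at 0.59 ± 0.06. Of 14 integrated stress response genes 5 rose and 2 fell, with Atf4 at 0.78 ± 0.09 and Cebpb at 0.95 ± 0.12.

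The other heat shock genes did not move as Hspa1a and Hspa1b did: of 18 measured, 2 rose and 8 fell in Gr1lo. The cytosolic Hsp90aa1 was higher by 0.81 ± 0.11. Those lower included the co-chaperone Dnajb6 (-0.84 ± 0.07), the mitochondrial Hspe1 (-0.77 ± 0.10) and Hsp90b1 of the endoplasmic reticulum (-0.63 ± 0.08). Of 10 other AP-1 and small Maf factors 1 rose and 4 fell, with the large Maf factor Maf at -1.48 ± 0.21 and Batf at -0.48 ± 0.06. Of 3 Egr partners, the corepressor Nab1 rose by 0.82 ± 0.10.

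The second comparison asked whether carrying beads went with a different level of these genes. Within each subset limma called 0 of the 38 genes. In Gr1lo monocytes 0.225% of all genes were called, and 7 of the 38 had an unadjusted p under 0.05 against 13.2% of all genes. In Gr1hi monocytes 0.247% of all genes were called, and 8 of the 38 had an unadjusted p under 0.05 against 9.93% of all genes. The smallest adjusted p was 0.144 in Gr1lo and 0.0662 in Gr1hi. Medians were 0.00 in Gr1lo and -0.09 in Gr1hi, and the largest absolute differences were 0.80 and 0.72. Averaged over the subsets, 2 genes fell and 0 rose, where 0.764% of all genes were called and 0.489% fell. The test of the difference between the 2 bead effects called 0 of the 38 genes (0.0440% of all genes). In that test 3 of the 38 had an unadjusted p under 0.05 against 7.84% of all genes, and the smallest adjusted p was 0.597.

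**Figure D3:**
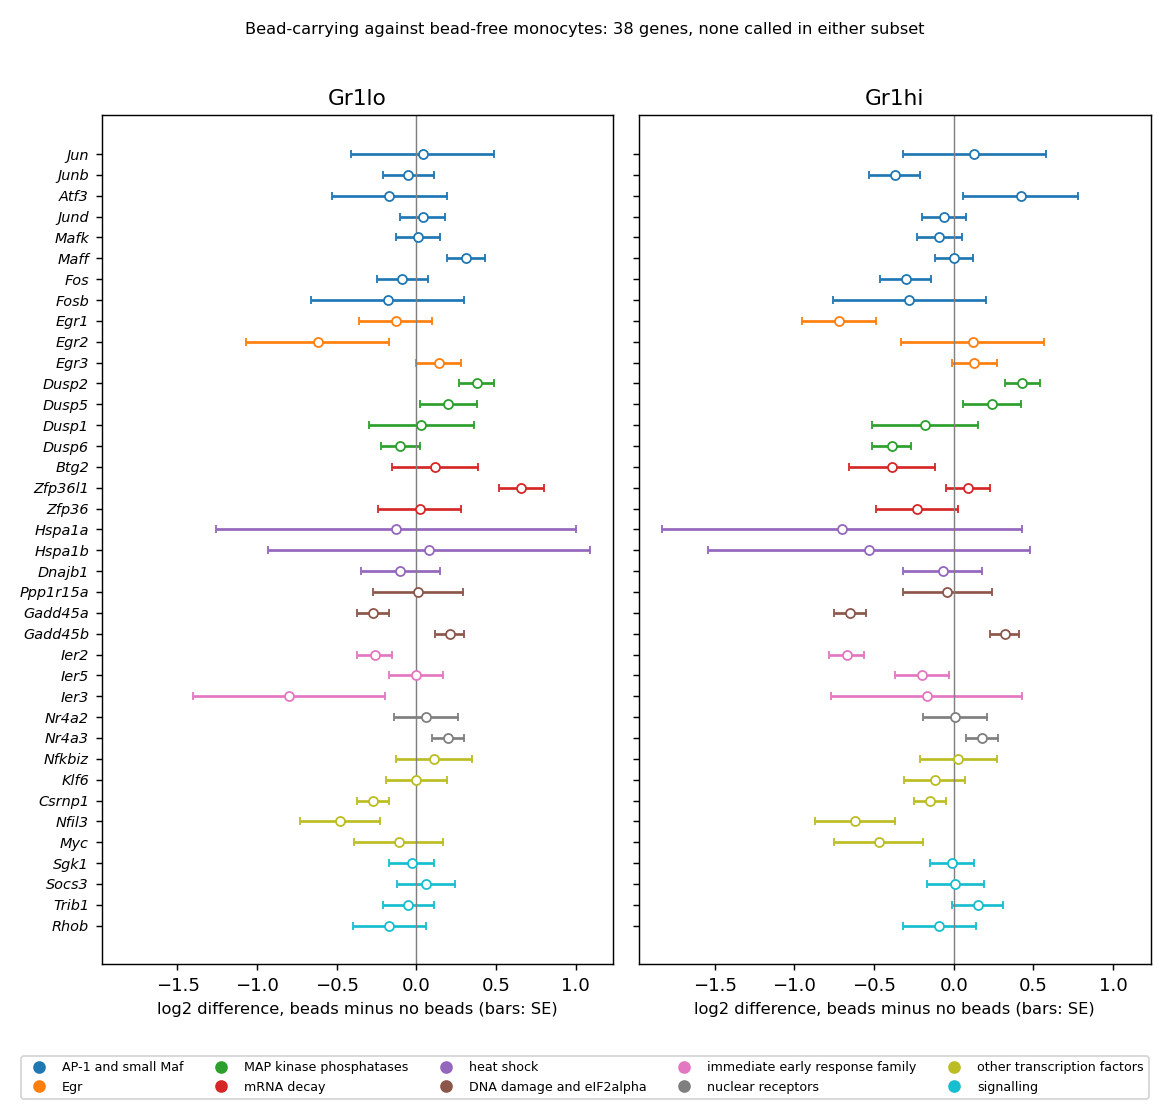
Difference in log2 expression between bead-carrying and bead-free monocytes for the 38 genes (rows, coloured by role), in Gr1lo (left) and Gr1hi (right). Points are limma estimates from 2 arrays a group and bars are standard errors; open points were not called. Estimates lie between -0.80 and 0.66 in Gr1lo and between -0.72 and 0.43 in Gr1hi, with the widest bars for Hspa1a and Hspa1b.

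The 2 that fell were Ier2 and Gadd45a. Ier2 was lower with beads by 0.46 on average (-0.46 ± 0.08, adjusted p = 0.0465), with -0.26 ± 0.11 in Gr1lo and -0.67 ± 0.11 in Gr1hi. As given above, both bead-carrying arrays lay below both bead-free arrays in each subset. Such separation of 2 arrays from 2 was not rare among the 38. In Gr1hi 4 were higher and 8 lower with beads without overlap, and in Gr1lo 5 and 5. The share of all genes is not given here. Gadd45a was at 6.21 and 6.40 in Gr1lo with beads, against 6.63 and 6.53 in Gr1lo without, and at 5.67 and 5.80 in Gr1hi with beads, against 6.31 and 6.46 in Gr1hi without. All these values are under the background level, and the average difference was -0.46 ± 0.07 (adjusted p = 0.0376). Both calls ended when any 1 array was left out other than the bead-free Gr1lo array numbered 2, with adjusted p up to 0.161 for Ier2 and 0.156 for Gadd45a. The difference between the subsets in the bead effect was 0.41 ± 0.16 for Ier2 and 0.38 ± 0.15 for Gadd45a (adjusted p = 0.608 for each).

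Dusp2 had higher values with beads in both subsets, at 10.71 and 10.76 in Gr1lo with beads, against 10.19 and 10.52 in Gr1lo without, and at 7.43 and 7.41 in Gr1hi with beads, against 6.96 and 7.02 in Gr1hi without. The bead-carrying and bead-free arrays did not overlap in either subset, but the average of 0.41 ± 0.08 was not called (adjusted p = 0.0662). The bead-free Gr1hi values were about the background level. Dusp2 was called higher on average with dim genes left out (adjusted p = 0.0443) and with a trend and robust spread (adjusted p = 0.0238). It was also called with a replicate block within each subset or a random one (adjusted p = 0.0445 and 0.0186). Without the bead-free Gr1lo array numbered 2 the average for Dusp2 was 0.49, from a fit with 1 array in that group. Zfp36l1 had a difference of 0.66 ± 0.14 in Gr1lo (adjusted p = 0.144, but called with the random block, adjusted p = 0.0417) and 0.09 in Gr1hi. Egr1 had -0.72 ± 0.23 in Gr1hi (adjusted p = 0.356) and -0.13 ± 0.23 in Gr1lo. Nfil3 was at 8.41 and 8.14 in Gr1lo with beads, against 8.92 and 8.59 in Gr1lo without, and at 8.08 and 7.64 in Gr1hi with beads, against 8.86 and 8.11 in Gr1hi without. In both subsets each bead-carrying array was below the bead-free array of its number, but the average of -0.55 ± 0.18 was not called (adjusted p = 0.208). With a replicate block Nfil3 was called lower (adjusted p = 0.0416), as with a block within each subset (adjusted p = 0.0235). For Fos and Jun the 95% intervals in each subset spanned 0.

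The single bead-free Gr1lo array with high Ier3 and Egr2 weighed on these results. Without its partner, numbered 2, the bead difference in Gr1lo was -1.96 for Ier3, -1.53 for Egr2, 0.89 for Zfp36l1 and 0.55 for Dusp2. That fit rests on 1 bead-free Gr1lo array and called many more of all genes than the main fit. Its calls are therefore not read as a result about the 38 genes. The 2 arrays of that group differed by 2.31 for Ier3, 1.81 for Egr2 and 1.01 for Myc, all higher on the array numbered 1. On that array tissue macrophage markers averaged 9.22, against 7.33 on its partner. Their part in the result was not tested. Among the pathway genes, Bhlhe40 was called with beads in Gr1hi, at 9.38 and 9.33 with beads, against 8.67 and 8.78 without (0.63 ± 0.09, adjusted p = 0.0347), and in Gr1lo none of the 105 was called.

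The poly-A spike controls, added to RNA during labelling, also moved with bead state. Their 27 probe sets averaged 9.69 and 9.71 in Gr1lo with beads, against 8.64 and 8.13 in Gr1lo without, and 8.82 and 9.17 in Gr1hi with beads, against 7.30 and 7.63 in Gr1hi without. The classical markers were lower in Gr1lo with beads, at 8.77 and 8.62, against 10.90 and 10.57 in Gr1lo without. The 18 hybridisation control probe sets averaged 11.84 and 12.18 in Gr1lo with beads, against 10.78 and 11.10 in Gr1lo without, and 11.33 and 11.32 in Gr1hi with beads, against 11.07 and 11.18 in Gr1hi without. The 18S probe sets were at 8.58 on the bead-free Gr1lo array numbered 1, against 10.13 on its partner. The part of these measures in the bead comparison was not tested.

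The set also varied between replicate arrays of Gr1hi monocytes. The array numbered 1 was the higher one for 29 of the 38 genes with beads and for 30 of the 38 without beads. Of genes above background 53.2% and 58.1% were higher on it. Median differences of the 38 were 0.35 and 0.42, against 0.01 for all genes in each. The array median over the 38 genes was 9.48 and 8.77 in Gr1hi with beads and 9.66 and 8.82 in Gr1hi without, while the 4 Gr1lo arrays lay between 10.71 and 10.79. Differences above 0.5 in size were seen for 14 and 15 of the 38 genes, as for 1.54% and 1.66% of genes above background. In both bead states the array numbered 1 was higher by more than 0.5 for 12 of the 38: Fosb, Jun, Atf3, Dusp1, Zfp36, Btg2, Hspa1a, Hspa1b, Dnajb1, Ppp1r15a, Ier3 and Rhob. That held for 43 of 8790 genes above background (0.489%). Hspa1a and Hspa1b ranked 1 and 2 of 18193 genes by this difference in both bead states.

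**Figure D4:**
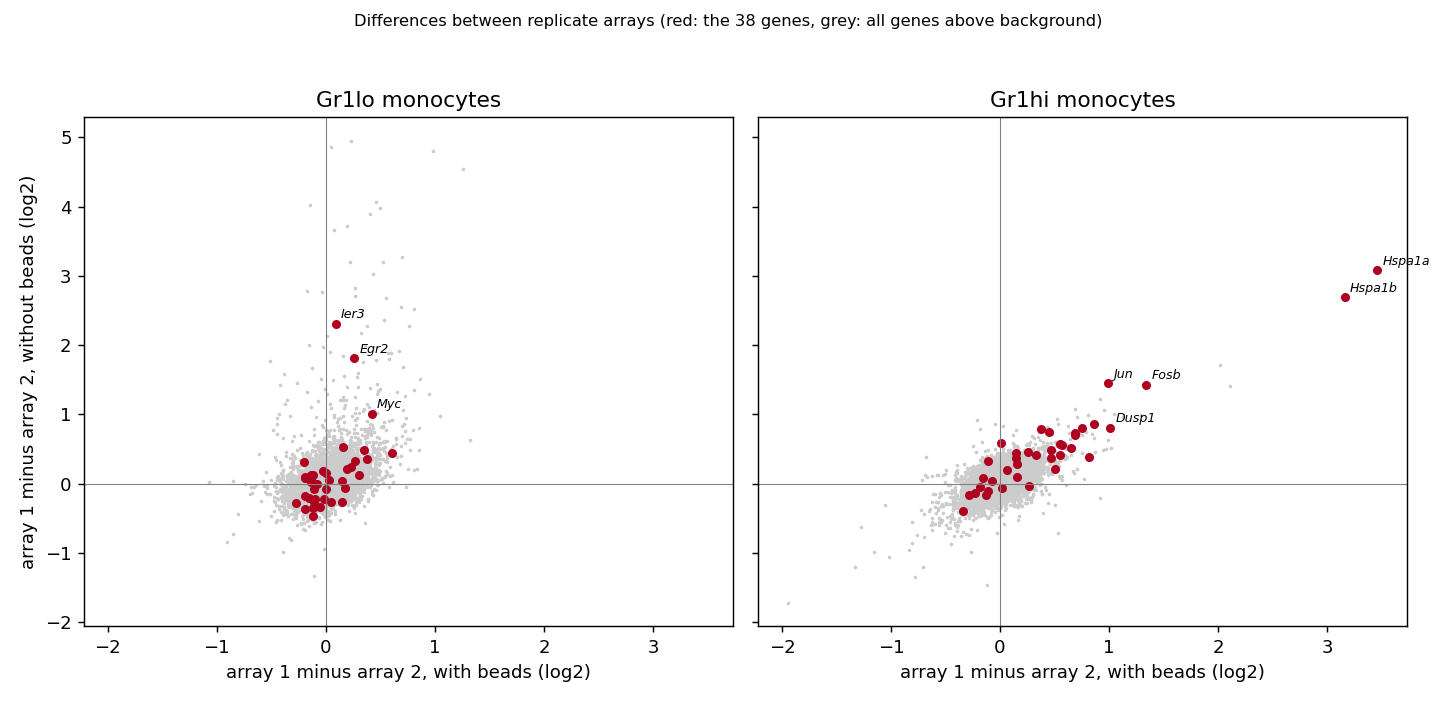
Difference between the 2 replicate arrays of a group in log2 expression, with beads (horizontal axis) and without beads (vertical axis), for Gr1lo (left) and Gr1hi (right). Red points are the 38 genes and grey points all genes above background; in Gr1hi, Hspa1a lies at 3.46 and 3.08 and Hspa1b at 3.16 and 2.69, while in Gr1lo Ier3, Egr2 and Myc differ without beads.

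By role, the 3 heat shock genes had median Gr1hi gaps of 3.16 with beads and 2.69 without, set by the near-identical Hspa1a and Hspa1b. The gap of Dnajb1 was 0.57 and 0.56, and the median of the 18 other heat shock genes was 0.12 and 0.13, with a maximum of 0.95 and 1.06. The median gap was 0.69 and 0.70 for the decay factors, 0.38 and 0.46 for AP-1 and small Maf factors, and 0.02 and 0.27 for the phosphatases, of which Dusp1 alone differed by over 0.5 in both bead states. In Gr1lo monocytes the array numbered 1 was higher for 17 of the 38 genes with beads and for 23 without, with medians of -0.03 and 0.07. Of genes above background 58.1% were higher on it in each bead state. All 3 heat shock genes were higher on it in both bead states there, with medians of 0.35 and 0.35. So were 16 of the 18 other heat shock genes in each bead state, with medians of 0.29 and 0.20. In Gr1hi 16 of the 18 with beads and 15 without were higher on the array numbered 1. Beside the Gr1hi gap, the Actb probe sets had a 3′ minus 5′ difference of 0.62 and 0.60 on the Gr1hi arrays numbered 1, against 0.43 and 0.40 on those numbered 2. Neutrophil markers averaged 9.05 and 9.63 on the Gr1hi arrays numbered 1, against 8.71 and 9.29 on those numbered 2. The part of either was not tested. Leaving out the Gr1hi arrays numbered 1, or those numbered 2, leaves 1 array in each Gr1hi group. Such fits also called fewer of all genes in the subset comparison. Calls among the 38 that ended in them, as given above for single genes, therefore do not separate the gap from the loss of arrays.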

How the data were processed

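RNA of sorted blood monocytes was hybridised to 8 Affymetrix arrays, 4 groups of 2. The log2 values deposited by the authors were used as given. They were read with oligo, per the labels' series text, and normalised by RMA, per the submitters' processing notes. The chip definition and versions were not given in the sources used here. Of 45101 probe sets 34945 had 1 symbol in the platform annotation, 932 had several and 9160 had none, and 64 were controls. The probe set with the highest mean was kept for each of 18193 genes. limma 3.58.1 in R 4.3.3 (lmFit, contrasts.fit, eBayes) fitted 4 group means, with 4 residual and 4.48 prior degrees of freedom, and Benjamini-Hochberg adjustment ran over all genes. The fit was tested on simulated data with independent arrays, so that test does not cover arrays of the same number that deviate together. Array values are given for genes called in at least 1 contrast and for the 3 largest differences of each contrast, and other pathway genes were named if called, at most 4 a list and contrast by p. The genes and lists were chosen with earlier results of these data known. Alternatives covered filters, probe set choice, scaling, weights, blocks and left-out arrays.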

Additional observations from a re-analysis of the deposited data

How the results depend on the processing

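Gr1lo against Gr1hi kept its direction and stayed within 1.5 times the main counts under all alternatives run: 21 to 32 of the 38 genes averaged over bead state, 16 to 28 with beads and 15 to 24 without. With a replicate block these counts were 32, 28 and 23, and Atf3 and Nfil3 were among those called in the average. No called difference reversed. Counts with left-out arrays include fits with 1 array in a group. There the replicate gap no longer enters the spread of that group, so these counts do not test the gap. Bead counts were small and moved. In Gr1hi (0 called) they were 2 with a trend and robust spread, 2 with array weights, 1 with a replicate block within each subset and 2 with a random replicate block, and the genes were Ier2 and Gadd45a (Ier2 where 1). In Gr1lo (0) they were 0 to 4 with 1 array left out and 1 (Zfp36l1) with the random block. For the average (2) they were 1 with every probe set tested, 1 with array weights, 1 with cyclic loess (Ier2 was lost in each), 2 with dim genes left out (Dusp2 entered, and Gadd45a was not tested), 3 with a trend and robust spread (Dusp2 entered), 3 with the replicate block (Nfil3 entered), 4 with the block within each subset (Nfil3 and Dusp2 entered), 4 with the random block (Dusp2 and Gadd45b entered), 0 without the Gr1hi arrays numbered 1, 0 without those numbered 2, and 0 to 6 with 1 array left out, 6 being without the bead-free Gr1lo array numbered 2 (Ier3, Egr2, Zfp36l1 and Dusp2 entered). For the difference between the bead effects (0) they were 0 to 1 with 1 array left out, 1 being Egr2 without that same array (-1.65 ± 0.16, adjusted p = 0.00246). The cause of these moves was not tested. Without the bead-free Gr1lo array numbered 2, calls over all genes also rose in the bead comparisons. The calls of that fit among the 38 are therefore not read as a result. The last 4 alternatives, the block within each subset, the random block and the removal of either set of Gr1hi arrays, were chosen after seeing the data. Deviations of same-numbered arrays correlated at 0.601 within Gr1hi and 0.367 within Gr1lo but at 0.036 to 0.090 across subsets, so the numbers were not taken to pair the groups, and the random block used a consensus correlation of 0.298. The main fit took all arrays as independent. Standard errors and p averaged over bead state may therefore be too small where a Gr1hi gap repeated in both bead states. Such genes include Hspa1a, Hspa1b, Jun, Dusp1, Zfp36 and Btg2. Genes at or below background, such as Egr2, Gadd45a, Nr4a2 and Myc, carry little information on these arrays.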
